A study of Mus musculus with 36 samples.

Results

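The renal response to 3 days of fasting was set against the renal response to 3 days of a carbohydrate-free (CHO-free) diet, probe set by probe set, as the difference between 2 effects: fasting minus its own SDS chow controls, less CHO-free minus its own Control diet. All 45141 probe sets on the arrays entered the comparison, on 19 of the 36 arrays of the series. Male C57BL/6 mice of 10 to 12 weeks gave 1 kidney array each, in 4 groups. These were 3-day fasting (n = 4), SDS, fed the standard chow ad libitum (n = 5), CHO-free, fed ad libitum for 3 days a purified diet in which protein replaced the carbohydrate (n = 5), and Control, fed the purified control type I diet ad libitum (n = 5). No group carried an allele, a transgene or an operation, and every mouse had eaten the SDS chow for 7 days beforehand. The study asked which components of a diet bring about the resistance of the kidney to ischemia-reperfusion injury, and the kidneys here were taken without such injury.

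Fasting removes all nutrients, so that the kidney burns fatty acids and ketone bodies, makes glucose and excretes acid as ammonium. A diet without carbohydrate also lowers insulin and keeps glucose production running, but it still supplies energy, fat and, in this case, extra protein whose nitrogen and acid the kidney must clear. The difference between the effects therefore sets total withdrawal of food against a diet with protein in place of carbohydrate. In its longer experiment, the paper reports that mice on the CHO-free diet ate less and lost weight. No group of arrays came from pair-fed mice. Any lower intake on CHO-free therefore cannot be told apart from the lack of carbohydrate. The control diets were not the same food (a standard chow and a purified diet), and the fasting and the diet arrays were normalised apart. The paper reports that fasting was a cohort of its own, hybridised on another date than the other arrays. It also reports that this date was the largest source of variability over all probes. Part of any difference between the effects therefore cannot be told apart from the choice of control or from the cohort. Levels are given only within each set of arrays. In whole kidney, fewer cells of a type and less RNA per cell cannot be told apart.

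Array medians lay between 4.15 and 4.21 (log2 signal) in the fasting set and between 3.62 and 3.76 on the 10 diet arrays, and arrays of the same group correlated at 0.984 to 0.997 with no identical pair. Kidney markers were high in each group, with proximal tubule markers averaging 11.17 after fasting, 11.19 on SDS, 11.06 on CHO-free and 11.19 on Control. A measure of RNA integrity moved with the CHO-free group: the Gapdh control probe sets at the 3′ end exceeded those at the 5′ end by 0.93 ± 0.09 (log2, SD, n = 4) after fasting, against 0.88 ± 0.23 on SDS, and by 1.85 ± 0.62 on CHO-free, against 0.82 ± 0.14 on Control (n = 5 each). The β-actin control probe sets moved the same way (2.47 ± 0.17 after fasting, 2.18 ± 0.20 on SDS, 3.55 ± 0.59 on CHO-free and 2.28 ± 0.35 on Control). Those of pyruvate carboxylase averaged above their controls under both regimens. They gave 6.25 ± 0.45 after fasting, 5.85 ± 0.37 on SDS, 7.49 ± 0.34 on CHO-free and 6.96 ± 0.42 on Control. The difference of the effects on the Gapdh measure was -0.97 (exact permutation test within each set of arrays, 2-sided, p = 0.0239, adjusted p = 0.0478 over 2 measures). The CHO-free arrays read 1.63, 0.98, 2.45, 2.45 and 1.72, so that CHO-free mice 3 and 4 stood highest, mouse 2 lay near the highest Control array (0.96), and the other groups did not exceed 1.23. Adipocyte markers, the other measure, averaged 6.42 ± 1.02 after fasting, 5.86 ± 0.27 on SDS, 5.59 ± 0.17 on CHO-free and 5.27 ± 0.31 on Control (difference of effects 0.24, exact permutation p = 0.657). The gene groups below were therefore also fitted with the Gapdh measure as a covariate (hereafter the integrity-adjusted fit). By the thresholds given below, 2343 probe sets passed for the fasting effect with and without the covariate. For the CHO-free effect 189 passed with it and 1792 without it. Because the measure moved with the CHO-free group, this fit cannot fully part the measure from the diet. Where a difference no longer passed there, RNA integrity and diet cannot be told apart. The part of RNA integrity in any difference was not tested beyond this fit.

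**Figure D1:**
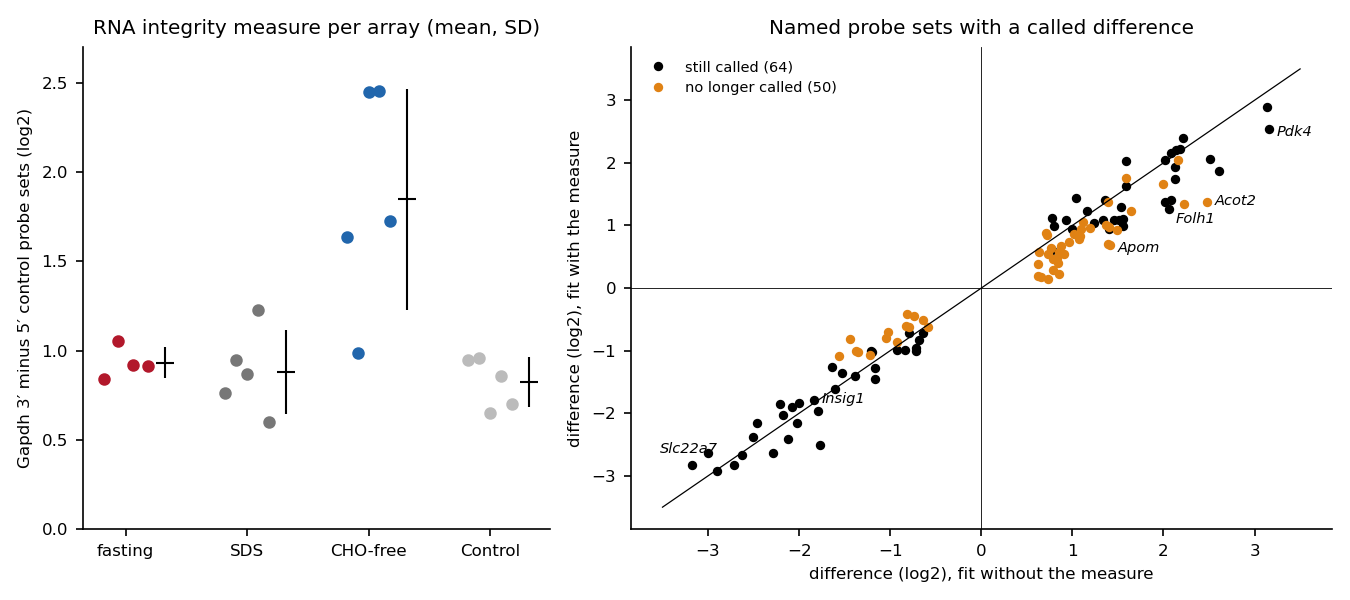
Left, the Gapdh 3′ minus 5′ measure (log2) on each array of the 4 groups, with mean and SD as bars. Right, the difference between the fasting and the CHO-free effect (log2) of the 114 named probe sets with a called difference in the fit without (x axis) and with (y axis) this measure. Of these, 64 were still called and 50 were not, and all 114 kept their sign.

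A probe set was called different when its Benjamini-Hochberg adjusted p over all probe sets was under 0.05 (limma) and the effects differed at least 1.5-fold. The difference was called for 1282 probe sets, 2.84% of those tested: 650 (1.44%) were higher and 632 (1.40%) lower after fasting than on CHO-free, each relative to its controls. These stood for 845 genes, and 374 of the probe sets differed at least 2-fold. The count was 519 in the integrity-adjusted fit (220 higher, 299 lower; 354 of the 1282 remained called) and 2169 without CHO-free mouse 2, the array with the lowest Gapdh measure of its group, of which 1245 were among the 1282. The fasting effect itself was called for 2343 probe sets (5.19%) and the CHO-free effect for 1792 (3.97%). Over all probe sets the effects correlated at r = 0.45, which describes probe sets that share arrays within each effect and no array between them. Among the 1166 probe sets that rose after fasting (2.58% of all) the median fasting effect was 0.78 and the median CHO-free effect 0.30, with 83.7% above 0. Among the 1177 that fell (2.61%), the medians were -0.80 and -0.34, with 84.4% of the CHO-free effects below 0.

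What each called difference was made of varied. The fasting effect alone was called for 649 of the 1282 (326 higher, 323 lower) and the CHO-free effect alone for 150 (93 higher, 57 lower). The count of CHO-free alone rested on single arrays: it was 701 without CHO-free mouse 2, 258 without Control mouse 1 and 92 without CHO-free mouse 4. Both effects were called in the same direction for 46 and in opposite directions for 24, and 413 differed with neither effect called. Of 1804 probe sets called after fasting and not on CHO-free, the difference was called for 649. The fasting arrays, as deviations from the SDS mean, lay wholly above or wholly below the CHO-free deviations from the Control mean for 1257 of the 1282 called probe sets, against 13.9% of all probe sets. This separation is read from the values that also gave the calls, so it describes the called probe sets and adds no support to them.

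**Figure D2:**
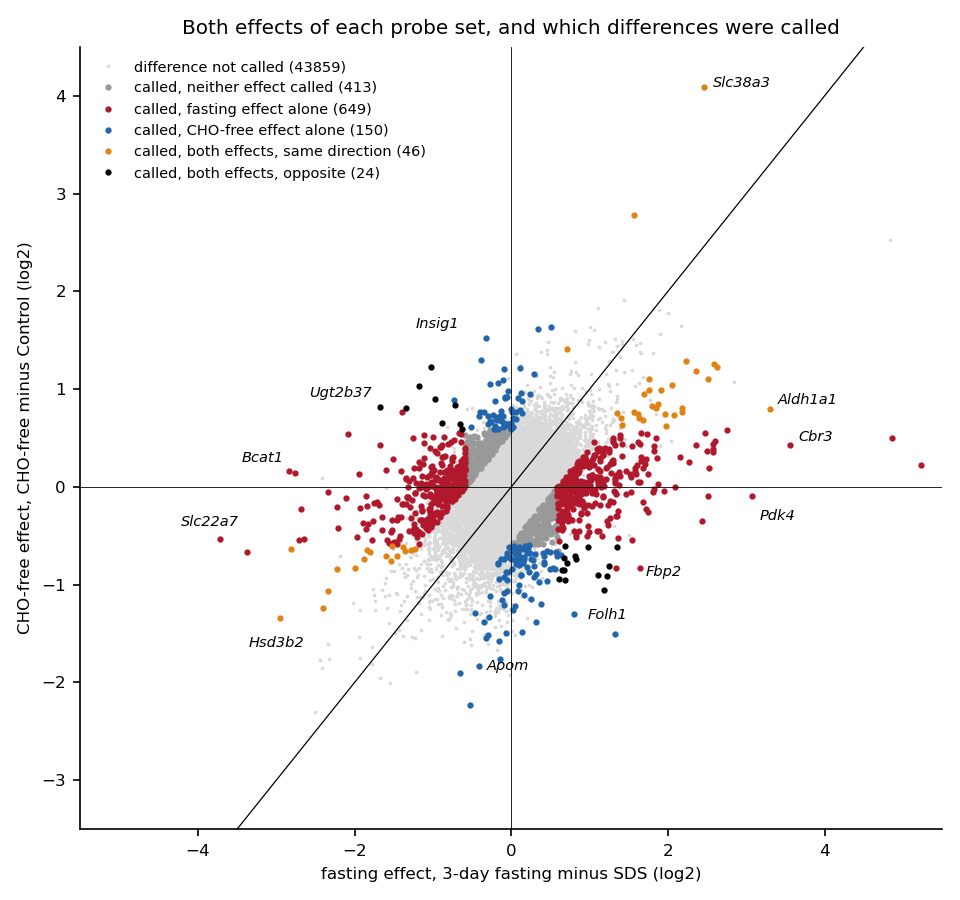
Each point is a probe set, with its fasting effect (3-day fasting minus SDS, log2) on the x axis and its CHO-free effect (CHO-free minus Control, log2) on the y axis. Colours give the 1282 called differences by class, the diagonal marks equal effects, and the 24 black points are those called in opposite directions.

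Gene lists were read with the brightest probe set of each gene, for which 1.91% of 17097 genes were called higher and 1.80% called lower, with a median difference of -0.02. The fasting effect was called higher for 2.89% and lower for 3.43% of these genes, and the CHO-free effect for 1.55% and 2.98%. In the integrity-adjusted fit the difference was called higher for 0.632% and lower for 0.930% of these genes. With the 3 SDS chow mice of the diet arrays in place of Control, each of these shares was 2.26%. Fatty acid oxidation stood out on the higher side. Of 29 measured genes that move fatty acids into mitochondria and peroxisomes, oxidise them or serve as PPARα targets, 14 were higher after fasting than on CHO-free, none was lower, and the median difference was 0.68 (median fasting effect 0.76, median CHO-free effect 0.16). In the integrity-adjusted fit 4 were called (Pdk4, Acot1, Plin2 and Ppara, of which Ppara was not called without the adjustment), with a median of 0.54. With the 3 SDS chow mice of the diet arrays in place of Control, 14 were called.

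Pdk4, which phosphorylates and silences pyruvate dehydrogenase so that glucose is spared, changed most among genes with a symbol on the higher side. Its signal was 9.50, 9.33, 9.83 and 10.25 after fasting and 6.65, 6.77, 6.60, 6.74 and 6.54 on SDS. On CHO-free it was 7.37, 8.37, 7.59, 6.36 and 6.21, against 7.56, 6.83, 7.10, 7.48 and 7.38 on Control. The fasting arrays stood far above every SDS array, and the CHO-free arrays lay on both sides of the Control arrays, mouse 2 highest and mice 4 and 5 lowest. Pdk4 rose 8.40-fold after fasting (3.07 ± 0.31 log2, SE) with -0.09 ± 0.29 on CHO-free, a difference of 3.16 (95% interval 2.28 to 4.03, adjusted p = 0.000157), and 2.54 in the integrity-adjusted fit (adjusted p = 0.0108).

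Acot2, a mitochondrial enzyme that frees fatty acids from their coenzyme A, gave 10.17, 10.05, 9.98 and 10.46 after fasting and 8.22, 8.45, 8.58, 8.68 and 8.65 on SDS. It gave 7.68, 8.05, 6.64, 5.69 and 6.41 on CHO-free and 7.42, 7.64, 8.20, 7.58 and 7.80 on Control, and CHO-free mice 3, 4 and 5 fell below every Control mouse while mice 1 and 2 did not. The difference was 2.48 ± 0.43 (adjusted p = 0.00199), and 1.38 with adjusted p = 0.0817 in the integrity-adjusted fit, where the call was lost. Its cytosolic relative Acot1 differed by 2.08 ± 0.31 and remained called there (1.40, adjusted p = 0.0292). Angptl4, a secreted inhibitor of lipoprotein lipase, read 9.15, 9.38, 9.76 and 10.02 after fasting and 7.83, 7.91, 7.57, 8.09 and 7.75 on SDS, without overlap. On CHO-free it read 8.53, 8.61, 8.25, 7.44 and 6.71, against 8.61, 7.64, 9.11, 7.87 and 7.55 on Control, and these overlapped. Its difference of 2.0 ± 0.47 (adjusted p = 0.0177) was also not called in the integrity-adjusted fit (1.66, adjusted p = 0.216).

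The other called members differed by less, between 0.68 (Plin2, a lipid droplet coat protein) and 1.20 (Cyp4a31, a fatty acid ω-hydroxylase). They included the carnitine carrier Slc25a20 (0.82 ± 0.21) and the β-oxidation enzymes Eci1 (0.84 ± 0.16) and Decr1 (0.79 ± 0.16). Cyp4a10, a close relative of Cyp4a31, rose under both regimens, by 1.79 after fasting and 0.83 on CHO-free. For 3 genes of the list the difference was not called although a role in fasting is well known: Ppara, the receptor itself (0.47 ± 0.15, adjusted p = 0.0996), Cpt1a, the entry enzyme of mitochondria (0.46 ± 0.14, adjusted p = 0.0621), and its muscle form Cpt1b, whose effects were 0.73 after fasting and 0.73 on CHO-free, both called.

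**Figure D3:**
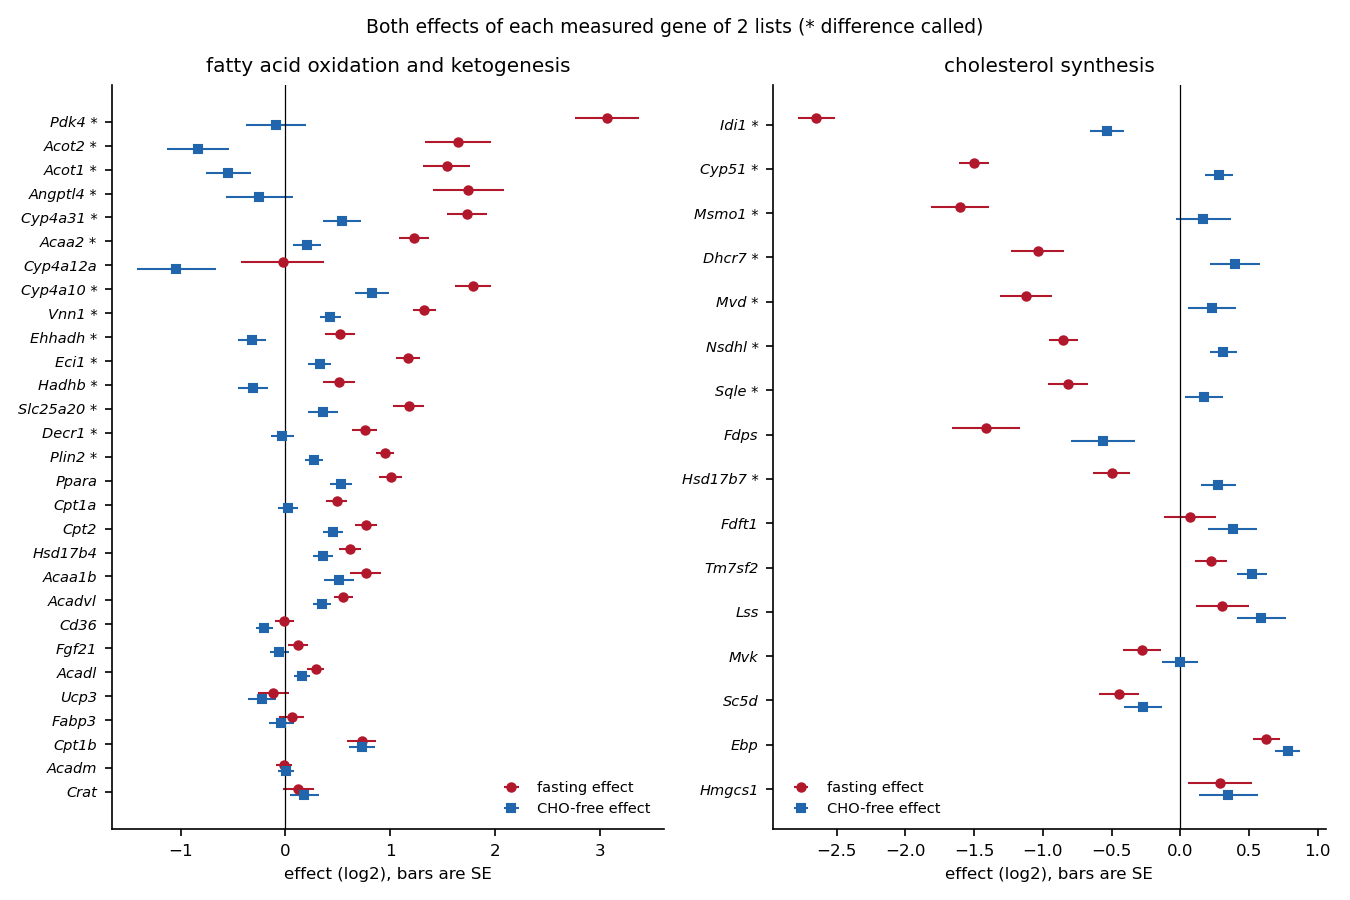
Fasting effect (circles) and CHO-free effect (squares) in log2 with their standard errors for each measured gene of fatty acid oxidation (left) and cholesterol synthesis (right), where a star marks a called difference. In the left panel 14 genes carry a star with the fasting effect to the right, and in the right panel 8 carry a star with the fasting effect to the left.

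Cholesterol synthesis went the other way. Of 16 measured enzymes of the pathway, 8 were lower after fasting than on CHO-free and none was higher, with a median difference of -0.81 (median fasting effect -0.66, median CHO-free effect 0.28). The 8 were Idi1, Cyp51, Msmo1, Dhcr7, Mvd, Nsdhl, Sqle and Hsd17b7. The fasting effect was called lower for all but Hsd17b7, whereas the CHO-free effect was called for none of the 8. In the integrity-adjusted fit 6 of the 16 were called lower (Idi1, Cyp51, Msmo1, Nsdhl, Sqle and Fdps, of which Fdps was not called without the adjustment), and with the SDS mice of the diet arrays as reference 8. Not every step took part: the effects of Ebp, a sterol isomerase, were 0.63 after fasting and 0.78 on CHO-free, both called, and Hmgcs1, which feeds the pathway, had effects of 0.29 and 0.35 in the same order, neither called.

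Cyp51, the lanosterol demethylase, read 7.01, 7.30, 7.11 and 6.97 after fasting and 8.99, 9.07, 9.37, 9.33 and 9.16 on SDS on the probe set with the lowest p. The same probe set read 9.04, 9.26, 9.20, 8.88 and 9.43 on CHO-free and 8.70, 8.60, 8.60, 8.84 and 8.37 on Control. Every fasting array lay below every SDS array, and every CHO-free array lay above every Control array. The fasting effect was -2.09 ± 0.11 and the CHO-free effect 0.54 ± 0.11, which is short of the 1.5-fold minimum, for a difference of -2.63 (95% interval -2.96 to -2.30, adjusted p = 1.03e-08). The other probe sets of Cyp51 differed by -1.79 and -2.10. Idi1, which makes the building block dimethylallyl diphosphate, read 8.82, 8.61, 8.89 and 8.38 after fasting and 11.24, 11.36, 11.25, 11.51 and 11.25 on SDS. It read 10.10, 10.34, 9.93, 9.67 and 10.29 on CHO-free and 10.34, 10.68, 10.50, 10.61 and 10.86 on Control, where CHO-free mouse 2 reached the lowest Control array. The effects were -2.65 ± 0.13 after fasting and -0.53 ± 0.12 on CHO-free, and the second was not called (difference -2.12, adjusted p = 8.20e-07).

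Among 10 measured regulators and transporters of sterols, Insig1 and Stard4 were lower and Mylip higher. Insig1, the endoplasmic reticulum protein that holds back SREBP, the transcription factor of sterol synthesis, read 8.36, 8.57, 8.28 and 8.29 after fasting, against 8.64, 8.57, 8.77, 8.79 and 8.69 on SDS, an effect of -0.32 ± 0.13 that was not called. It read 8.86, 8.40, 8.73, 8.44 and 9.20 on CHO-free and 6.93, 7.48, 7.32, 7.19 and 7.10 on Control, with no overlap and a rise of 2.87-fold. The difference was -1.84 ± 0.18 (adjusted p = 5.62e-06), -1.79 in the integrity-adjusted fit (adjusted p = 0.000375) and -1.61 against the SDS mice of the diet arrays (adjusted p = 0.000120). Stard4, a cholesterol carrier, differed by -0.84 ± 0.14. Mylip, the ligase that marks the LDL receptor for breakdown, differed by 1.08 ± 0.29 (adjusted p = 0.0443) and was not called in either alternative fit (0.83 and 0.47). Srebf2, the SREBP gene most tied to sterols, had a difference of -0.62 ± 0.20 that was not called (adjusted p = 0.0945).

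The promoters of Insig1, which rose on CHO-free, and Cyp51, which fell after fasting, are shown to place their motifs. Each window runs 250 bases before to 50 bases after the RefSeq start site (GRCm38.p6), 5′ to 3′ on the strand of the gene, and capitals mark an E-box (CACGTG), a nuclear receptor core motif (AGGTCA) or FOXO letters (GTAAACA) on either strand.
Insig1 promoter, chr5:28071162-28071461, plus strand: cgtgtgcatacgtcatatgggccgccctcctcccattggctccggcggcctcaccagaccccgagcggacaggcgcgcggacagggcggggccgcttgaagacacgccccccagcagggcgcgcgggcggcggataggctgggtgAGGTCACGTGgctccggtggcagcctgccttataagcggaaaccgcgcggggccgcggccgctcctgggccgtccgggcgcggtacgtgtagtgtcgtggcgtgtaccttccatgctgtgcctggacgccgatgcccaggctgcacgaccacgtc
Cyp51 promoter, chr5:4104648-4104947, minus strand: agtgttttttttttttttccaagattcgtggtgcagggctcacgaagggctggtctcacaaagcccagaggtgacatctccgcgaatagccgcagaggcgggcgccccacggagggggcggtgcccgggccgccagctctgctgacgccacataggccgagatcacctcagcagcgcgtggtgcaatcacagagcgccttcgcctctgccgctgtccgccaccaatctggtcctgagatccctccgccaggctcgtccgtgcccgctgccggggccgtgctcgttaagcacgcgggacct
In Insig1 an E-box starting 101 bases before the start site overlaps a core motif starting 105 bases before it, which makes the single run of capitals. Cyp51 holds none of the 3 motifs, and neither window holds the letters TCACNCCAC used here for a sterol regulatory element. Of 13 cholesterol synthesis genes with a window, 3 held an E-box (23.1%) and 1 held TCACNCCAC (7.69%), against 8.1% and 1.4% of the 27025 genes with a window. Among 313 genes called lower after fasting with a window the shares were 12.5% and 0.64%, and among the 368 called higher 13.0% and 2.17%. Over the 13514 measured genes with a window, from which called genes come, they were 10.2% and 1.49%. The letters were not commoner on the lower side than on the higher, and variants of the letters were not searched.

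Of 17 genes of fatty acid synthesis and desaturation, 3 were lower: the Δ5-desaturase Fads1, the Δ6-desaturase Fads2 (-0.93 ± 0.18) and the fatty acid synthase Fasn (-1.37 ± 0.33). None was called in the integrity-adjusted fit. Against the SDS mice of the diet arrays the list had 3 higher (Thrsp, Acacb and Elovl6) and 2 lower (Fads1 and Fads2), with a median difference of -0.03, against -0.19 with Control, and Fasn was at -0.03 (adjusted p = 0.982), so that the direction of the list depended on the mice used as reference. Adipocyte markers read 6.17, 7.13 and 7.10 on those SDS mice, against means of 5.27 on Control and 5.59 on CHO-free. The part of fat tissue in the change of reference was not tested. Fads1 read 7.43, 7.64, 7.51 and 7.88 after fasting and 8.0, 8.23, 8.45, 8.20 and 8.36 on SDS, with every fasting array below every SDS array. It read 8.73, 8.30, 8.73, 8.71 and 9.17 on CHO-free and 8.14, 8.27, 8.53, 8.06 and 7.66 on Control, where mouse 2 on CHO-free lay within the Control range. The effects were called in opposite directions, -0.63 ± 0.16 after fasting and 0.60 ± 0.15 on CHO-free (difference -1.23, adjusted p = 0.00247; -1.06 and 0.0610 in the integrity-adjusted fit). Scd1, the Δ9-desaturase, had a difference of -0.80 ± 0.38 that was not called (adjusted p = 0.297).

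**Figure D4:**
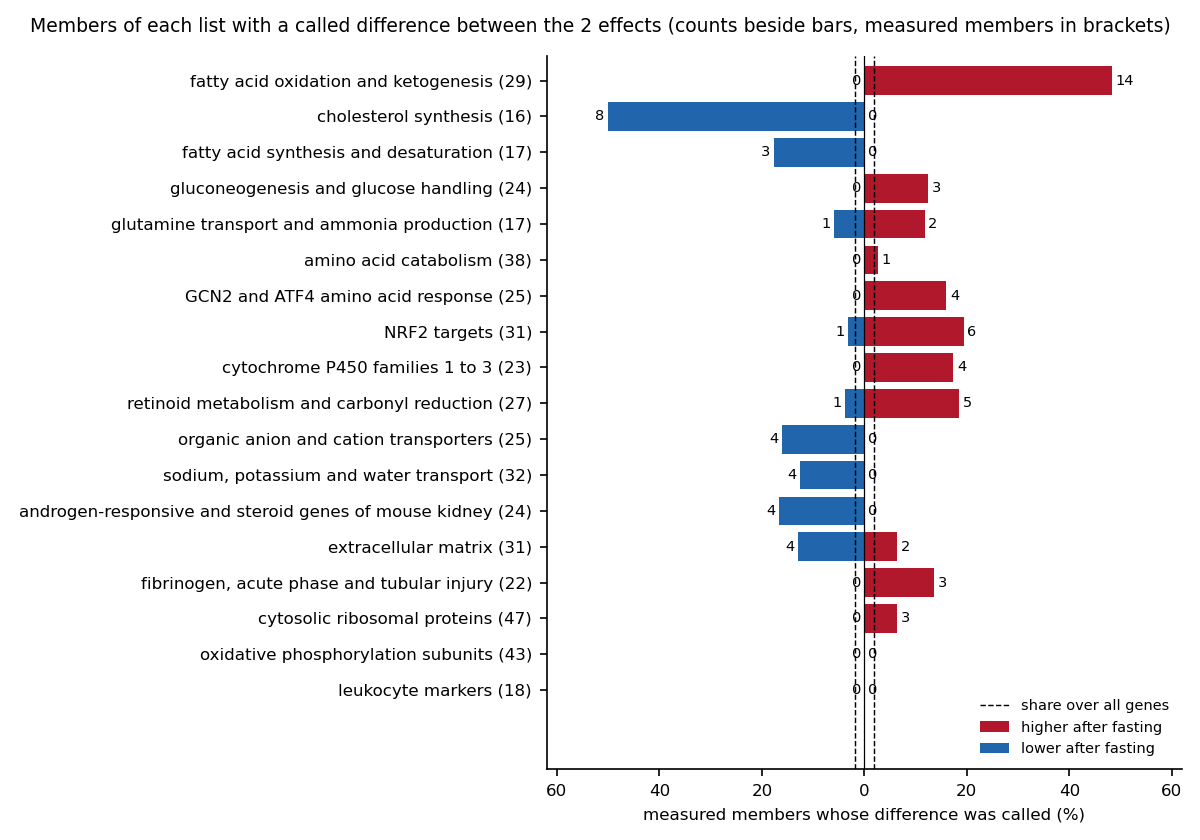
Share of the measured members of 18 gene lists whose difference was called, higher after fasting to the right and lower to the left, with counts beside the bars and the number measured in brackets. Dashed lines give the shares over all genes, 1.91% higher and 1.80% lower, and fatty acid oxidation (14 of 29 higher) and cholesterol synthesis (8 of 16 lower) lie farthest from them.

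Called differences of NRF2 targets, carbonyl-reducing enzymes and cytochromes P450 were mainly higher, and those of organic anion and cation transporters lower. Of 31 targets of NRF2, the factor that turns on antioxidant and conjugating enzymes, 14 rose after fasting and 11 on CHO-free, 7 of them under both, and the difference was called for 6 higher and 1 lower (4 higher and 0 lower in the integrity-adjusted fit). The median difference of the list was 0.03, with 17 members above 0 and 14 below. Nqo1, a classical target, rose by 1.69 after fasting and by 1.12 on CHO-free, with no called difference (0.56 ± 0.21, adjusted p = 0.146). The carbonyl reductases set the regimens apart. Cbr3 read 8.92, 8.91, 8.62 and 8.88 after fasting and 5.03, 5.47, 5.23, 5.02 and 5.59 on SDS, and 3.83, 4.28, 4.26, 3.86 and 5.35 on CHO-free against 3.91, 3.99, 3.97, 3.37 and 4.20 on Control. Apart from CHO-free mouse 5, the CHO-free arrays lay close to the Control arrays, while the fasting arrays were all more than 3 log2 units above the SDS mean. Cbr3 rose 11.8-fold after fasting, and the difference was 3.14 ± 0.31 (adjusted p = 5.62e-06). Its neighbour in function, Cbr1, differed by 2.13 ± 0.19, and Mgst1, a membrane glutathione transferase, by 1.45 ± 0.19. Tkt, of the pentose phosphate pathway, was the member that was lower (-0.71 ± 0.17), with effects of 0.23 after fasting and 0.95 on CHO-free, and it was not called in the integrity-adjusted fit.

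Aldh1a1, which makes retinoic acid and clears aldehydes, rose under both regimens and far more after fasting. It read 10.08, 9.99, 10.13 and 10.14 after fasting and 6.73, 6.50, 6.88, 6.78 and 6.99 on SDS, and 6.79, 6.97, 6.47, 6.19 and 6.73 on CHO-free against 5.65, 5.90, 5.89, 5.72 and 5.99 on Control, with no overlap on either side. The effects were 3.31 ± 0.13 after fasting and 0.80 ± 0.12 on CHO-free, a difference of 2.51 (95% interval 2.14 to 2.87, adjusted p = 5.57e-08). Its paralog Aldh1a7 followed, with 2.63 after fasting and 1.22 on CHO-free. Since the sequences of the pair are alike, their probe sets may share signal. Akr1c18, which inactivates progesterone, went the other way (difference -2.08 ± 0.29). Of the 27 genes of retinoid metabolism and carbonyl reduction, 5 were higher and 1 lower, and 4 were higher and 2 lower in the integrity-adjusted fit.

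Of 23 cytochromes P450 of families 1 to 3, 4 were higher and none lower. Cyp2d22, the mouse enzyme often likened to human CYP2D6, read 8.54, 8.59, 8.56 and 8.73 after fasting and 6.10, 6.16, 6.06, 6.12 and 6.10 on SDS, and 6.29, 5.95, 6.02, 6.29 and 6.39 on CHO-free against 6.10, 5.78, 5.87, 5.48 and 5.86 on Control. The SDS arrays lay close together and far below the fasting arrays, and the CHO-free and Control arrays overlapped. It rose 5.66-fold after fasting, with a CHO-free effect of 0.37 ± 0.10 and a difference of 2.13 ± 0.14 (adjusted p = 5.42e-08). Cyp2d26, Cyp2d9 and Cyp2j9 differed by 1.64, 0.93 and 0.71, and of the list Cyp2d22 and Cyp2d9 were called in the integrity-adjusted fit. Genes of the 2d cluster are near copies of each other, so that their probe sets are not independent.

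Of 25 organic anion and cation transporters, 4 were lower (Slc22a7, Slc22a2, Slc22a22 and Slc22a30) and none higher, and in the integrity-adjusted fit 3 of these remained called while Slc22a2 did not and Slc22a21 was called higher. Slc22a7, the organic anion transporter OAT2, read 6.78, 7.47, 7.02 and 6.74 after fasting and 10.57, 10.78, 10.64, 10.97 and 10.62 on SDS, and 10.45, 10.19, 10.50, 10.48 and 9.40 on CHO-free against 10.91, 10.83, 10.84, 10.65 and 10.45 on Control. The fasting arrays were more than 3 log2 units below the SDS mean, and CHO-free mouse 5 was lowest of the diet arrays. Slc22a7 fell 13.1-fold after fasting (-3.71 ± 0.19) with -0.53 ± 0.17 on CHO-free, and the difference of -3.18 (95% interval -3.71 to -2.65, adjusted p = 3.91e-07) was the lowest among genes with a symbol. Slco1a1, another organic anion transporter, had called effects of -0.68 after fasting and -0.66 on CHO-free, with a difference of -0.02 ± 0.21.

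Ugt2b37, which attaches glucuronic acid to steroids and drugs, was called in opposite directions. Its signal was 9.32, 8.66, 9.95 and 8.55 after fasting and 10.78, 10.61, 10.53, 11.06 and 11.01 on SDS, and 11.40, 11.42, 11.61, 11.66 and 11.53 on CHO-free against 10.45, 10.84, 10.40, 11.01 and 10.82 on Control, with no overlap on either side. The effects were -1.68 ± 0.21 after fasting and 0.82 ± 0.19 on CHO-free, and they differed by -2.50 (adjusted p = 2.70e-05). Ugt2b5, of the same family and similar in sequence, gave -1.18 after fasting and 1.03 on CHO-free, and both remained called in the integrity-adjusted fit (-2.38 and -1.86).

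Of 17 genes of glutamine transport and ammonia production, 6 rose after fasting and 3 on CHO-free, and the difference was called lower for Slc38a3 and higher for Gpt and Slc25a22. Slc38a3 (SNAT3), which brings glutamine into the proximal tubule for ammonium production, read 8.47, 8.59, 8.20 and 8.57 after fasting and 6.21, 5.81, 5.92, 6.29 and 5.77 on SDS. On CHO-free it read 10.44, 9.44, 10.11, 10.02 and 10.19, against 6.52, 6.08, 5.94, 5.72 and 5.49 on Control. All fasting and all CHO-free arrays stood well above their controls. The rise was 5.49-fold after fasting and 17.0-fold on CHO-free, and the difference of -1.64 ± 0.26 (adjusted p = 0.000815) was -1.26 in the integrity-adjusted fit (adjusted p = 0.0423). Glud1, glutamate dehydrogenase, rose under both, by 1.13 after fasting and 1.43 on CHO-free, with no called difference (-0.30 ± 0.12, adjusted p = 0.165). Slc25a22, a mitochondrial glutamate carrier, differed by 1.16 ± 0.18, and Gpt, alanine aminotransferase, by 0.72 ± 0.19, which was not called in the integrity-adjusted fit.

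Of 38 genes of amino acid breakdown, Arg2, mitochondrial arginase, alone was called (2.18 after fasting, 0.81 on CHO-free, difference 1.37 ± 0.29), and not in the integrity-adjusted fit (adjusted p = 0.20). Bcat1, the cytosolic aminotransferase of branched-chain amino acids, was outside that list and chosen by its rank. It read 5.08, 5.48, 4.95 and 4.66 after fasting and 7.99, 8.50, 7.32, 8.27 and 7.33 on SDS, against 7.65, 7.60, 7.83, 7.82 and 7.38 on CHO-free and 7.83, 7.38, 7.93, 7.46 and 6.88 on Control. Every fasting array lay below every SDS array, and the CHO-free and Control arrays overlapped. Bcat1 fell 7.15-fold after fasting with 0.16 ± 0.22 on CHO-free (difference -3.0 ± 0.32, adjusted p = 1.43e-05).

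Among 25 genes of the GCN2 and ATF4 response to amino acid shortage, 9 rose after fasting, 1 rose and 2 fell on CHO-free, and 4 were higher in the difference: Eif4ebp1 (0.99 ± 0.15), Chac1, Atf5 (0.80 ± 0.18) and Slc3a2 (0.76 ± 0.21). Eif4ebp1 and Atf5 were called in the integrity-adjusted fit. Chac1, which degrades glutathione, read 4.98, 4.70, 4.69 and 5.46 after fasting and 3.93, 3.83, 4.14, 3.76 and 3.79 on SDS, with no overlap, and 3.64, 3.98, 3.55, 4.11 and 4.32 on CHO-free against 3.97, 3.89, 4.21, 3.72 and 3.95 on Control, which overlapped (difference 1.09 ± 0.22, adjusted p = 0.00637). For Asns, asparagine synthetase, the difference of 0.75 ± 0.25 was not called (adjusted p = 0.0995), with effects of 1.21 after fasting and 0.46 on CHO-free. Mtor itself, the kinase of the complex that senses amino acids, read 9.17, 9.42, 9.41 and 9.27 after fasting and 9.67, 10.10, 9.77, 9.96 and 9.90 on SDS, against 10.70, 10.22, 10.71, 10.59 and 10.28 on CHO-free and 10.48, 10.20, 10.24, 9.88 and 9.38 on Control. Neither effect was called (-0.56 and 0.46 in the same order), the difference was (-1.03 ± 0.23, adjusted p = 0.0120), and in the integrity-adjusted fit it was not (-0.71, adjusted p = 0.257). Of the 21 measured genes of the mTOR complexes, the inhibitor Deptor and the translational repressor Eif4ebp1 were higher and Mtor lower, and Eif4ebp1 alone was called in the integrity-adjusted fit.

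Of 24 genes of gluconeogenesis and glucose handling, 8 rose after fasting, 1 rose on CHO-free and 3 were higher in the difference: Fbp2, the fructose transporter Slc2a5 (1.12 ± 0.24) and mitochondrial Pck2 (0.63 ± 0.18). Fbp2, a fructose-bisphosphatase best known from muscle, read 7.74, 8.02, 7.52 and 7.81 after fasting and 6.41, 6.49, 6.99, 6.17 and 6.71 on SDS, with no overlap. It read 5.62, 5.27, 4.26, 5.13 and 4.30 on CHO-free and 6.0, 6.21, 6.10, 5.29 and 5.54 on Control, where mouse 1 on CHO-free lay within the Control range, mice 2 and 4 just below it and mice 3 and 5 well below it. The effects had opposite signs and were both called, 1.22 ± 0.25 after fasting and -0.91 ± 0.23 on CHO-free (difference 2.13, adjusted p = 0.000851, and 0.0384 in the integrity-adjusted fit). In that fit Fbp2 was the only called member, and neither Slc2a5 (1.06) nor Pck2 (0.57) was called. Against the SDS mice of the diet arrays Fbp2, Slc2a5 and Pfkfb3 were higher, Slc2a1 and Hk1 were lower, and Pck2 was not called (0.38).

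**Figure D5:**
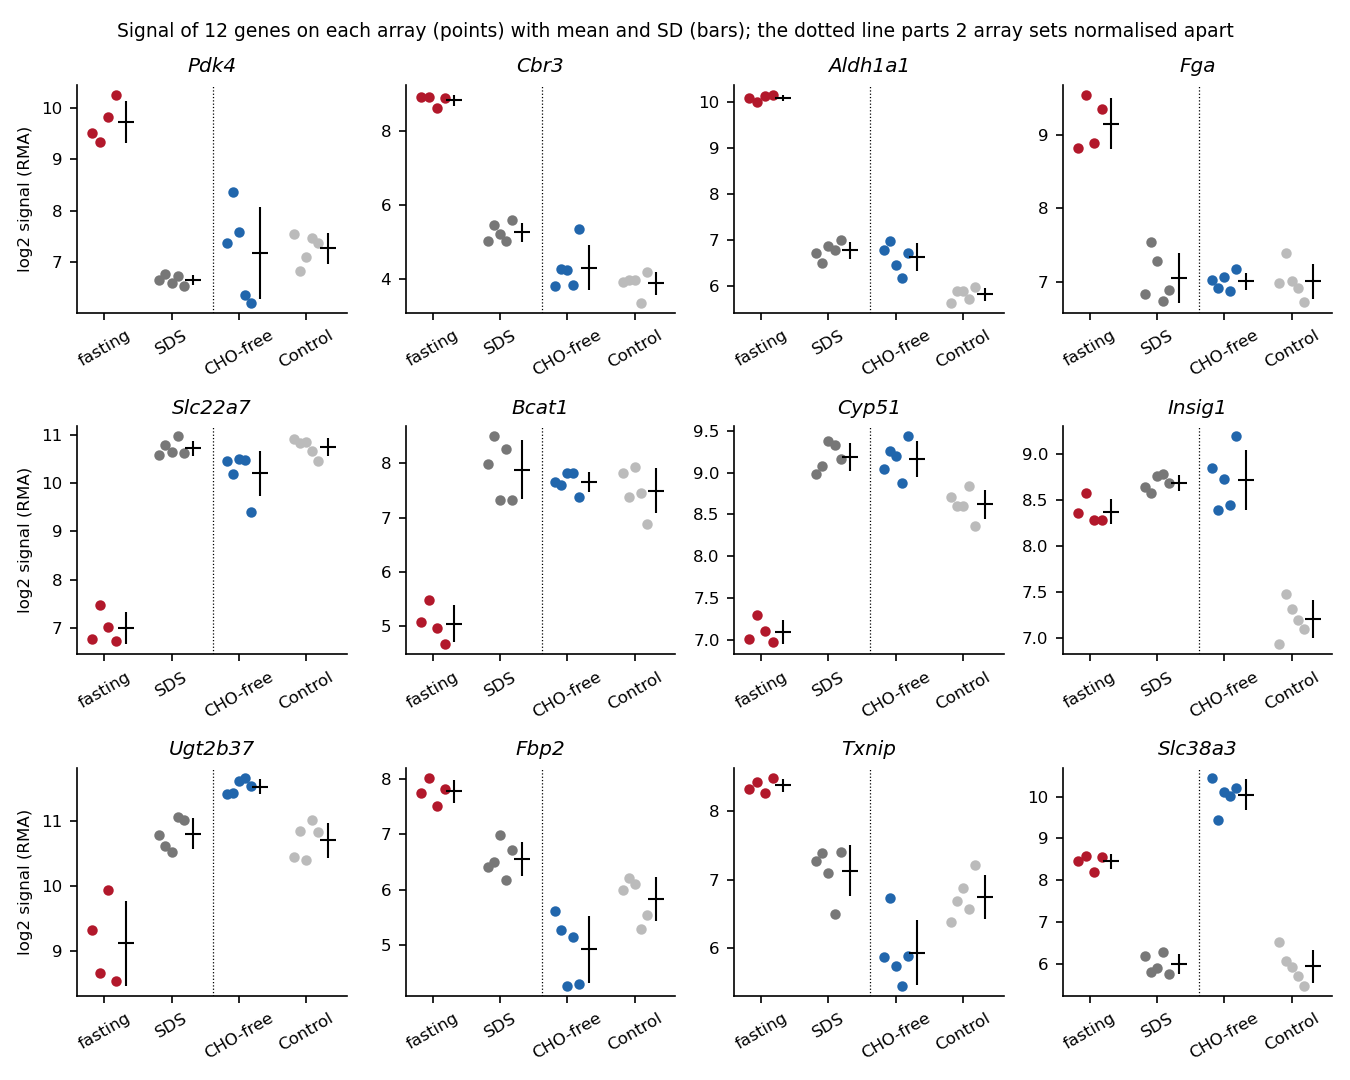
Signal (log2, RMA) of 12 genes on each array, in the order fasting, SDS, CHO-free and Control, with mean and SD as bars; levels left and right of the dotted line are not comparable, because the arrays were normalised apart. Pdk4, Cbr3 and Fga are high after fasting only, Insig1 stands above its controls on CHO-free only, and Ugt2b37, Fbp2 and Txnip move in opposite directions.

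The 24 probe sets called in opposite directions stood for 18 genes, and they were few: 15 rose after fasting and fell on CHO-free, and 9 did the reverse. Txnip, an inhibitor of thioredoxin and of glucose uptake, was among the 15. On its dimmer probe set it read 8.33, 8.43, 8.27 and 8.49 after fasting and 7.27, 7.38, 7.09, 6.50 and 7.41 on SDS, and 5.87, 6.73, 5.74, 5.45 and 5.88 on CHO-free against 6.39, 6.68, 6.88, 6.57 and 7.22 on Control. The fasting arrays lay above every SDS array, and CHO-free mouse 2 lay within the Control range while the other mice lay below it. The effects were 1.25 ± 0.21 after fasting and -0.81 ± 0.20 on CHO-free (difference 2.06, adjusted p = 0.000294). On the brighter probe set the CHO-free effect was -0.16 and not called, and the difference was 1.23 ± 0.15, so that the opposite direction rests on the dimmer probe set. In the integrity-adjusted fit the CHO-free effect of the dimmer probe set was 0.02 and the difference 1.27 (adjusted p = 0.00846).

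Tmem37, a small membrane protein related to calcium channel subunits, read 8.82, 8.90, 8.59 and 8.58 after fasting and 7.97, 8.01, 8.32, 7.85 and 8.42 on SDS, and 7.41, 7.71, 7.10, 6.97 and 7.26 on CHO-free against 8.20, 8.31, 8.34, 8.21 and 8.09 on Control, with no overlap on either side (difference 1.55 ± 0.18, adjusted p = 3.86e-05). Apoh, a phospholipid-binding plasma protein, read 8.78, 9.04, 8.70 and 8.86 after fasting and 7.96, 8.09, 8.47, 8.02 and 8.30 on SDS, and 6.15, 6.64, 6.14, 6.15 and 6.32 on CHO-free against 6.92, 7.53, 7.10, 7.16 and 6.96 on Control, again without overlap (difference 1.53 ± 0.18, adjusted p = 3.86e-05). Others that rose after fasting and fell on CHO-free were Folh1, a carboxypeptidase of folate and glutamate (difference 2.23), the zinc-finger repressors Klf3 (2.01) and Klf10 (1.59), Bex1 (1.51), and Chp1, which binds sodium-proton exchangers (1.56). The reverse group held, beside the Ugt2b genes and Fads1, the monocarboxylate transporter family member Slc16a14 (-1.56) and the magnesium transporter Slc41a2 (-1.53). In the integrity-adjusted fit 1 probe set of the whole array was called in opposite directions in both effects with a called difference, and the CHO-free effect was called for 189 probe sets there. The difference itself remained called for Txnip, Fbp2, Klf3, Klf10, Tmem37, Apoh, Bex1, Chp1, Slc41a2 and both Ugt2b genes, and not for Folh1, Slc16a14, Fads1, Rpl22, Psmd9 and Cyp2d26.

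The promoters of Txnip and Fbp2 are shown as examples of the opposite class with FOXO letters and with an E-box, by the same conventions as above.
Txnip promoter, chr3:96557707-96558006, plus strand: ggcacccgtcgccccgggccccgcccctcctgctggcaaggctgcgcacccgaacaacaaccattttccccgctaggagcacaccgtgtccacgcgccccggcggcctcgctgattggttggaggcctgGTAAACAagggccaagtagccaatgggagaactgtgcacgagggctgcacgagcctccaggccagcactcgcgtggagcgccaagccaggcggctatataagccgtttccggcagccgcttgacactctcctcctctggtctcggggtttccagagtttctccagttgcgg
Fbp2 promoter, chr13:62858351-62858650, minus strand: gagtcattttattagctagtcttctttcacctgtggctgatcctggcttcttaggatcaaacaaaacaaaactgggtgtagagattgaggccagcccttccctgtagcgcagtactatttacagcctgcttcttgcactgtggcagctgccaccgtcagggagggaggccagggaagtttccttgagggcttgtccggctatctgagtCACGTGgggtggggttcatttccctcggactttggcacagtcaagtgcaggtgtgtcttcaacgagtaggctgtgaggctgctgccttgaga
The FOXO letters of Txnip start 121 bases before its start site and the E-box of Fbp2 starts 42 bases before its own. Of 14 genes of the opposite class with a window, 3 held an E-box, 2 the FOXO letters and 4 a nuclear receptor core motif. The shares were 8.1%, 4.1% and 18.1% over all genes with a window, and 10.2%, 3.4% and 16.5% over the measured ones. These are matches of letters in so few genes that nothing is read from the shares.

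Of 24 FOXO factors and targets, 8 rose after fasting and 1 on CHO-free, and 3 were higher in the difference: Txnip, the mitophagy receptor Bnip3 (0.77 ± 0.12) and the co-regulator Cited2 (0.83 ± 0.17). Txnip and Bnip3 were called in the integrity-adjusted fit. Igfbp1, a known target of FOXO1 in liver, rose by 2.03 after fasting with 0.47 on CHO-free, but the difference of 1.56 ± 0.54 was not called (adjusted p = 0.126). None of 19 genes of insulin and IGF signalling and none of 26 metabolic and xenobiotic nuclear receptors was called, although Ppara was in the integrity-adjusted fit. Of 21 immediate early genes, Jun (0.96 ± 0.20) and Dusp1 (1.08 ± 0.28) were higher, neither in the integrity-adjusted fit. Of 20 clock genes, Per1 was higher (1.04 ± 0.28) and Bhlhe40 lower (-0.83 ± 0.17), of which Per1 remained called in the integrity-adjusted fit, while Dbp, a clock output gene, rose by 1.25 after fasting and 1.03 on CHO-free.

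The fibrinogen genes Fga and Fgg were higher after fasting. Fga, the α chain of the clotting protein that injured tubules also make, read 8.82, 9.54, 8.89 and 9.34 after fasting and 6.84, 7.54, 7.29, 6.75 and 6.89 on SDS, and 7.03, 6.92, 7.07, 6.89 and 7.18 on CHO-free against 6.99, 7.39, 7.02, 6.92 and 6.74 on Control. The fasting arrays stood above all SDS arrays, and the CHO-free and Control arrays overlapped. Its difference was 2.08 ± 0.23 (adjusted p = 1.66e-05), that of the γ chain Fgg 2.61 ± 0.41, and that of ceruloplasmin, Cp, 1.59 ± 0.23, and all 3 were called in the integrity-adjusted fit. Of the 22 genes of this list these 3 were higher and none lower. The β chain, Fgb, differed by 0.71 ± 0.58 and was not called (adjusted p = 0.623), nor was the injury marker Havcr1 (-0.22 ± 0.54).

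Of 31 matrix genes, 4 were lower and 2 higher. Col3a1, the fibrillar collagen III chain, read 7.06, 6.65, 7.01 and 6.79 after fasting and 8.79, 9.30, 8.91, 9.39 and 9.13 on SDS, against 9.04, 9.15, 8.83, 8.84 and 9.0 on CHO-free and 9.60, 8.81, 9.50, 9.15 and 8.82 on Control. All fasting arrays lay below all SDS arrays, and the diet groups overlapped (difference -2.03 ± 0.22, adjusted p = 1.38e-05, and -0.74 on another probe set). Col5a2 (-1.17 ± 0.19), fibronectin Fn1 (-0.72 ± 0.15) and Col15a1 (-0.64 ± 0.15) were also lower, and Lox, which crosslinks collagen, and decorin, Dcn, were higher (0.87 and 0.62). In the integrity-adjusted fit Col3a1, Col5a2 and Fn1 remained called, and Col15a1, Lox and Dcn did not. The main chains of collagen I, Col1a1 and Col1a2, were not called (-0.47 ± 0.21 and -0.22 ± 0.14). Leukocyte markers fell in part under both regimens, 8 of 18 after fasting and 5 of 18 on CHO-free, and no difference was called. Their mean level was 6.10 after fasting, 6.53 on SDS, 5.79 on CHO-free and 6.14 on Control.

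Of 24 genes that mark the androgen and steroid state of the mouse kidney, 7 fell after fasting and 7 on CHO-free, and 4 of the 24 were lower in the difference. Hsd3b2, a 3β-hydroxysteroid dehydrogenase, read 7.08, 7.71, 7.60 and 7.32 after fasting and 10.13, 10.53, 10.59, 9.92 and 10.70 on SDS, and 8.74, 8.92, 9.18, 8.62 and 8.29 on CHO-free against 10.08, 10.19, 10.01, 10.36 and 9.81 on Control, with no overlap on either side. The effects were -2.95 after fasting and -1.34 on CHO-free, both called (difference -1.61 ± 0.24, adjusted p = 0.000542). Odc1, ornithine decarboxylase of polyamine synthesis, was called after fasting and not on CHO-free. It read 7.79, 7.50, 7.79 and 7.42 after fasting and 9.60, 9.91, 9.81, 9.83 and 9.52 on SDS, against 10.15, 9.94, 10.16, 9.92 and 9.67 on CHO-free and 10.16, 10.16, 9.76, 10.38 and 9.94 on Control. The diet groups overlapped, and the difference was -2.0 ± 0.17 (adjusted p = 9.72e-07). Kap, the androgen-regulated protein of the proximal tubule, did not pass (-0.05 ± 0.09, adjusted p = 0.875). Hsd3b2, Odc1, Slc22a30 and Hsd3b4, the 4 lower members, were also called in the integrity-adjusted fit.

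Genes of the collecting duct differed on the lower side as well. Of 32 genes of sodium, potassium and water transport, 4 were lower and none higher. Avpr2, the vasopressin receptor of principal cells, read 6.50, 6.39, 5.80 and 6.17 after fasting and 6.93, 6.89, 6.81, 6.90 and 6.83 on SDS, and 6.74, 6.88, 7.07, 7.18 and 6.79 on CHO-free against 6.66, 6.46, 6.41, 6.12 and 6.22 on Control. Every fasting array lay below every SDS array and every CHO-free array above every Control array (effects -0.66 after fasting and 0.56 on CHO-free, of which the second fell short of 1.5-fold, difference -1.22 ± 0.18, adjusted p = 0.000364). The water channel Aqp2 (-1.04 ± 0.21), the sodium pump subunit Fxyd4 (-0.79 ± 0.18) and Bsnd, a chloride channel subunit (-0.74 ± 0.18), followed, and of the 4 only Avpr2 was called in the integrity-adjusted fit. The principal cell markers averaged 6.84 after fasting, 6.95 on SDS, 7.46 on CHO-free and 7.03 on Control, and their part in these differences was not tested.

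Slc4a1, the anion exchanger of type A intercalated cells through which they return bicarbonate to blood, was called on CHO-free and not after fasting. It read 7.86, 7.74, 7.94 and 7.99 after fasting against 7.96, 8.02, 7.96, 8.09 and 7.92 on SDS, which overlapped, and 8.91, 8.80, 8.97, 9.11 and 8.95 on CHO-free against 8.17, 8.0, 7.89, 7.56 and 7.67 on Control, which did not. The fasting effect was -0.11 ± 0.10, the CHO-free effect 1.09 ± 0.10 and the difference -1.20 ± 0.14 (adjusted p = 3.45e-05), with -1.01 in the integrity-adjusted fit (adjusted p = 0.00315). The difference was not called for other markers of intercalated cells in general, of whatever type: Foxi1 differed by -0.36 ± 0.20 and Slc26a4 by -0.23 ± 0.17. The intercalated cell markers, Slc4a1 among them, averaged 8.06 after fasting, 8.15 on SDS, 8.51 on CHO-free and 8.22 on Control. Red cells carry the same exchanger, and the red cell precursor markers averaged 6.70 after fasting, 7.28 on SDS, 6.71 on CHO-free and 6.83 on Control.

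On the side of CHO-free alone, several differences were not called in the integrity-adjusted fit. Apom, the apolipoprotein that carries sphingosine 1-phosphate and is made by the proximal tubule, read 10.04, 10.22, 9.71 and 9.73 after fasting, against 10.15, 10.47, 10.48, 10.02 and 10.57 on SDS, which overlapped. It read 8.36, 9.01, 7.90, 7.65 and 8.34 on CHO-free and 9.63, 10.47, 10.09, 9.98 and 10.22 on Control, with every CHO-free array below every Control array and mouse 4 lowest. Its difference of 1.41 ± 0.29 (adjusted p = 0.00710) was 0.68 in the integrity-adjusted fit (adjusted p = 0.254) and 1.22 against the SDS mice of the diet arrays (adjusted p = 0.0604). Ribosomal protein genes gave the same picture: of 47, Rps9, Rps13 and Rplp0 were called higher, with CHO-free effects of -0.78, -0.61 and -0.57, of which the last fell short of 1.5-fold. None was called in the integrity-adjusted fit and none against those SDS mice. The proteasome gene Psmd8 and the lysosomal proteases Ctsl and Ctsz were likewise called in neither. The CHO-free effect of Ctsl, a 1.43-fold fall, was also short of 1.5-fold.

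Part of the response was shared. Both effects were called in the same direction for 515 probe sets, 22.0% of the fasting calls and 28.7% of the CHO-free calls, and for 169 of them (32.8%) the 95% interval of the difference lay within 1.5-fold on either side. Shared genes of large effect with the smallest differences included Ttr, the carrier of thyroid hormone and retinol (-1.16 after fasting and -1.13 on CHO-free, difference -0.03 ± 0.29), the elastase Cela1 (-1.33 and -1.36 in the same order), the depalmitoylase Lypla1 (-1.10 and -1.06) and Ascc1 (-1.12 and -1.12), all of which fell. Hspa4, a chaperone, fell alike on 1 probe set (-1.43 and -1.46), while another of its probe sets was called lower in the difference (-0.77). Bhmt, which methylates homocysteine with betaine, rose by 1.89 after fasting and 1.81 on CHO-free. No difference was called for any of 43 oxidative phosphorylation subunits or 11 genes of the renin-angiotensin system, with or without the integrity adjustment. These were not shared changes: neither effect was called for any of the 43 subunits. Of the 11 genes, 1 was called higher after fasting and 1 lower on CHO-free, and none under both. With 1.91% of all genes called higher and 1.80% lower in the difference, few calls fall in lists of this size. No difference was called among 22 genes of phosphate, vitamin D and calcium handling. In the integrity-adjusted fit Calb1 and Slc8a1 of that list were called lower (-0.95 and -1.02). Without CHO-free mice 3 and 4 the list had 2 lower.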

How the data were processed

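Kidney RNA of single mice was hybridised to Affymetrix HT MG-430 PM arrays. The authors deposited log2 values after RMA, made apart for the fasting arrays and the diet arrays, and removed outlier arrays beforehand; no source used here gives the RMA version. Of 45141 probe sets, 28898 had 1 gene symbol in the platform annotation, 551 several and 15692 none, and only those with 1 symbol were named. Deposited columns all belonged to listed samples.

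The difference, (fasting minus SDS) minus (CHO-free minus Control), and both effects were fitted with limma (version 3.58.1, R 4.3.3) on the 19 arrays with shared variance. Calls needed a Benjamini-Hochberg adjusted p under 0.05 over all probe sets and 1.5-fold. The integrity-adjusted fit added the Gapdh 3′ minus 5′ measure as a covariate. In simulated data with 200 changed probe sets of 45141, the fit without the covariate recovered 90% of 2-fold and 100% of 4-fold changes, with 5 false calls among 195. The simulated noise was independent between arrays and had the same SD in all groups. It held no part for RNA integrity or cohort, so these rates do not cover errors from either.

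Genes were named by a fixed rule: the 15 highest and 15 lowest called differences with separated arrays, up to 12 on each side of the opposite class, 10 of the same-direction class, up to 6 called members of each list, the defining genes of each list, and the 8 shared genes with the smallest difference. A gene is given by its called probe set with the lowest p, and in lists by its brightest. The members and the lists were chosen with earlier results of these data known. Promoters are from RefSeq (GRCm38.p6), which matched 95 of 120 named genes. Each array is a separate mouse, and the small number of arrays limits precision. Alternatives covered eBayes settings, the fold minimum, array weights, normalisation, probe set choice, the arrays fitted, the reference of the diet arrays, covariates and leaving out each array.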

Additional observations from a re-analysis of the deposited data

Results flagged for a closer look

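Among 120 group-by-gene sets of arrays examined for a value far from the rest of its group, 2 stood apart, where chance gives about 5% of such sets. Fasting replicate 3 read 8.62 for Cbr3, with the nearest fasting array at 8.88, a gap of 0.884 of the range of the 4 arrays, and it still lay above every SDS array. CHO-free replicate 5 read 9.40 for Slc22a7, with the nearest CHO-free array at 10.19, a gap of 0.716 of the range of the 5 arrays. Neither gene lost its called difference when any 1 array was left out.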

How the results depend on the processing

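No paired analysis was possible because each mouse has an identifier of its own and no label ties mice of different groups. None of the 114 named probe sets with a called difference changed sign under any alternative. They were chosen for their calls in these same data, so the kept signs add no support to them. Requiring no fold minimum gave 5744 fasting and 5949 CHO-free calls, 103 opposite, 131 in the same direction, 984 fasting alone and 412 CHO-free alone. Testing against 1.5-fold itself (limma's treat) left 64 differences (36 higher, 28 lower), 351 fasting and 58 CHO-free calls, 0 opposite, 0 in the same direction, 52 fasting alone and 2 CHO-free alone, while 496 differences had an unadjusted p under 0.05 there. With 1 probe set a gene there were 704 differences (363 higher, 341 lower), 1091 fasting and 778 CHO-free calls, 14 opposite, 30 in the same direction, 336 fasting alone and 84 CHO-free alone. With the Gapdh measure there were 519 differences (220 higher, 299 lower), 189 CHO-free calls, 1 opposite, 10 in the same direction, 394 fasting alone and 17 CHO-free alone. CHO-free alone counted 264 with array weights and 293 with each set of arrays fitted apart. The CHO-free effect was called for 1166 probe sets against the SDS mice of the diet arrays, where 891 of the 1282 differences remained and 1 changed sign. Without CHO-free mice 3 and 4 it was called for 799, with 8 opposite and 60 CHO-free alone.

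Leaving out 1 array gave 976 to 2169 differences, 466 to 1250 higher and 484 to 919 lower, 2181 to 2458 fasting and 1266 to 2695 CHO-free calls, 18 to 35 opposite, 37 to 62 in the same direction, 523 to 675 fasting alone and 92 to 701 CHO-free alone. Of 114 named probe sets with a called difference, 90 were called whichever array was left out and 24 were not, and 61 were called under all 14 other alternatives apart from treat. With treat and every other alternative counted, 30 of the 114 stayed called under each that gave a value. The other 84 were not called under at least 1. The causes of these changes were not tested.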
